A study of Mus musculus with 9 samples.

Results

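The comparison sets the lacrimal gland of old mice against that of young adults. It uses 6 of the 9 libraries of the series, 3 at 24 months and 3 at 2 months, chosen by their age labels and by no measured value. All came from C57BL/6J female mice fed ad libitum in a cycle of 12 hours of light and 12 hours of dark, and no transgene, drug or diet is named for any group. For the youngest group, sample titles give 8W and the age label gives 2 months. The other 3 libraries, from 12 months, entered the model that estimates the spread between replicates, and their values are set beside those of the 2 ages. By its title the study is about ectopic lymphoid tissue in old glands, so the comparison asks which immune, stromal and secretory transcripts separate the ends of this age range. The labels do not say whether a library is 1 mouse or a pool, so each p-value measures the spread between these libraries only, which may be technical. In whole tissue, fewer cells of a type and less RNA per cell cannot be told apart.

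The lacrimal gland makes the watery layer of the tear film. Its acinar cells secrete proteins such as lactoferrin, secretoglobins, odorant binding proteins and, in mice, exocrine gland secreted peptides that act as pheromones, while myoepithelial cells squeeze the acini and plasma cells in the stroma supply IgA for transport into tears. In an ectopic lymphoid structure, B cells and T cells gather in a tissue that is not a lymphoid organ, drawn by chemokines such as CXCL13 and let in through venules that resemble those of a lymph node. Interferons raise MHC molecules and antiviral proteins in the cells around such infiltrates.

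Each of the 9 libraries held between 40516863 and 42573877 counts, and 14944 of 54232 genes had enough counts to be tested. Levels are given as CPM, a gene's counts relative to the library size after TMM scaling, which assumes that most genes do not change. The first principal component of the log2 CPM held 43.89% of the variance, with scores of -47.46 to -32.99 at 2 months and 13.26 to 35.95 at 24 months. Aqp5, a water channel of acinar cells, was present in every library. It was at 261, 307 and 271 CPM in replicates 1, 2 and 3 at 2 months and 253, 263 and 275 CPM at 24 months. Of 12 salivary gland genes in the annotation 5 were tested, and their summed level was 0.598, 73.7 and 873 CPM at 2 months and 7.33, 256 and 1.15 CPM at 24 months. Bpifa2, a salivary secreted protein, accounted for much of that, with 8, 1829 and 22857 counts at 2 months and 201, 8709 and 8 at 24 months. Salivary transcripts thus stood apart in 2-month replicate 3 and 24-month replicate 2, and to a lesser extent in 2-month replicate 2. The mean of the sums was 316 CPM at 2 months and 88.2 CPM at 24 months, with overlap, and all 5 log2 fold changes were below 0. Their part in the results was not tested. Counts of called genes without 2-month replicate 3, 12-month replicate 2 and 24-month replicate 2, the salivary-rich libraries, are given beside the lists where they differ by over 1.5 times. That fit leaves 2 libraries an age and keeps 2-month replicate 2, so it is not free of salivary transcripts. Counts without 1 library are given by the same rule.

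Genes of B and T cells, macrophages, complement, antigen presentation, fibroblasts and fat cells were higher in old glands. Among the genes that were lower stood secreted peptides, single secretoglobins, a lipase, organic anion transporters and most ribosomal protein genes tested. Of the 14944 tested genes, 2597 (17.4%) differed between 24 and 2 months at an adjusted p under 0.05 in the quasi-likelihood F test of edgeR, 1467 (9.82%) higher and 1130 (7.56%) lower in old glands. The increases were larger: 993 of the 1467 were at least 2-fold and 231 at least 10-fold, against 158 and 11 of the 1130 decreases, and the median log2 fold change was 1.47 among the higher genes and -0.54 among the lower ones. The genes that rose started low, with a median level at 2 months of 1.47 CPM, against 24.8 CPM for those that fell and 4.81 CPM for all tested genes. Part of both contrasts, of size and of starting level, follows from the count filter, which admits genes counted at a single age. A gene without young counts can only rise, and its ratio can be large. Of the higher genes, 66 had 0 counts over the 3 libraries of 2 months, 44 of them immunoglobulin or T cell receptor genes, and a further 75 had 1 to 3 counts. Of 120 tested antigen receptor genes 89 rose and 0 fell. Those with few or no counts at 2 months could not be seen to fall, so the 0 carries little information. In 1420 of the 1467 and 1119 of the 1130 called genes the libraries of the ages did not overlap, which held for 35.1% of all tested genes. Where a called gene is said below to show no overlap, that therefore adds little to its call.

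This split depends on the scaling: with library totals alone the median of all log2 fold changes went from 0.01 to 0.31, and 2626 genes were higher and 191 lower. It also leans on single libraries. Without 2-month replicate 2 the counts were 691 higher and 469 lower, without 2-month replicate 3 they were 868 and 608, without 24-month replicate 3 they were 854 and 551, and without 24-month replicate 2 the lower genes numbered 691. limma voom with sample weights, which gives libraries far from their group less weight, did not call Bpifa6, Psapl1, Agt, Scd3, Cxcl13, Pou2af1, Glycam1, Cd79a, Esp23, Ms4a1, Fcrla, Lag3, Ighg2b, Iglc1, Mzb1, Cxcr5, H2-Aa, H2-Oa, Gbp2, Igtp, Cpa3, Scgb1b3, Slpi, Muc1 or Adipoq among the genes described here, with adjusted p between 0.051 and 0.372. Without the salivary-rich libraries the test did not call Cacna1b, Esp31, Lag3, S1pr2, H2-Aa, H2-Oa, Nlrc5, Kit, Casp1, Esp38, Scgb2b2, Tcn2, Clu, Slpi, Chrm3, Bhlha15, Sox9, Muc1, Des, Igf1r, Thbd, Lpl, Rps2, Rplp2, Uqcrq, Dnajb9, Cdkn1a, Arntl, Adipoq or Fasn, with adjusted p between 0.0506 and 0.501. Chromosome 6 had the largest share of higher genes among the numbered chromosomes, 19.1% of 822 tested, or 13.6% with antigen receptor genes left out.

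**Figure D1:**
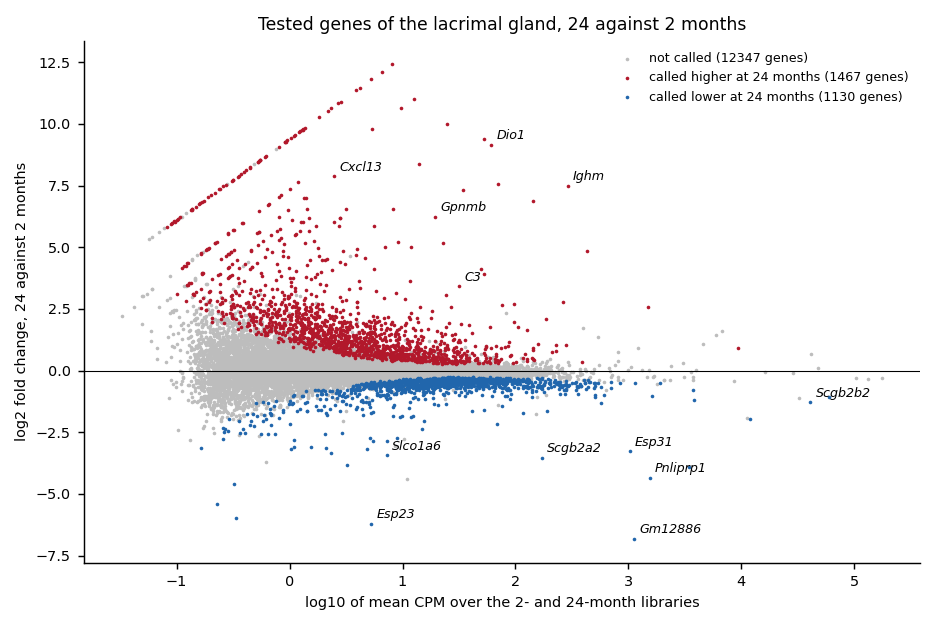
Each point is a tested gene, with the log10 of its mean CPM over the libraries of 2 and 24 months on the horizontal axis and its log2 fold change (24 over 2 months) on the vertical axis, and called genes are coloured by direction. The called increases reach further from 0 than the called decreases and lie mostly among genes of low level, and the straight streaks at upper left are genes with 0 or a few counts at 2 months.

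A large and even increase was that of Dio1, the deiodinase that converts the prohormone thyroxine to active thyroid hormone (ENSMUSG00000034785, chromosome 4, 107291465 to 107307169 on the minus strand of GRCm38). Dio1 stood at 0.249, 0.176 and 0.198 CPM at 2 months and 107, 109 and 148 CPM at 24 months, 571-fold higher (log2 fold change 9.16, SE 0.24, adjusted p = 7.01e-10). All 3 old libraries were high and the 12-month libraries, at 0.136, 0.102 and 0.0227 CPM, were as low as the young ones (24 against 12 months: log2 fold change 10.39, SE 0.26, adjusted p = 3.87e-10). Slc28a1, a nucleoside transporter (ENSMUSG00000025726, chromosome 7, 81114799 to 81170416, plus strand), followed the same order, at 0.299, 0.147 and 0.821 CPM at 2 months, at 0.384, 0.0409 and 0.0454 by 12 months and at 17.9, 16.3 and 6.46 by 24 months (log2 fold change 4.997, SE 0.61, adjusted p = 0.000474). Cartpt, the precursor of a neuropeptide, was at 0.0249, 0.352 and 0.396 CPM in young and 4.43, 5.78 and 12.8 CPM in old glands (log2 fold change 4.92, SE 0.66, adjusted p = 0.000765), and 0.700, 0.204 and 0.273 CPM at 12 months. These 3 genes were called against 12 months too, Slc28a1 at an adjusted p of 0.000332 and Cartpt at 0.00214.

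Other large increases were uneven among the old libraries. Bpifa6, a member of the secreted BPI fold family, was at 0, 0.147 and 0 CPM at 2 months and 3.64, 113 and 32.5 CPM at 24 months (log2 fold change 9.996, SE 1.66, adjusted p = 0.00279). Psapl1, a prosaposin-like gene, had 1 count over the young group and 1436 over the old one, a 1196-fold ratio whose 95% interval from counting runs from 214 to 47280.0 (adjusted p = 0.00362). Agt, the precursor of angiotensin, was at 0.573, 0.323 and 1.25 and then 2.04, 40.1 and 27.4 CPM (log2 fold change 5.02, SE 0.85, adjusted p = 0.00309). In each of these genes the 24-month replicate 1 was low and replicate 2 the highest. Scd3, a stearoyl-CoA desaturase listed among Harderian gland genes, went from 0.249, 0.0587 and 0.198 to 1.2, 45.4 and 2.8 CPM, and its log2 fold change of 6.55 was 3.53 without 24-month replicate 2. The remaining large increases were immune or fat genes (Cxcl13, Gpnmb, Pou2af1, Glycam1, Cd79a, Atp6v0d2, Ccl8 and Car3), which are described with their groups.

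Among the largest decreases were secreted products, lipases and transporters. Esp23, a gene of an exocrine gland secreted peptide (ENSMUSG00000096697, chromosome 17, 39073691 to 39077037, minus strand), stood at 5.11, 5.4 and 20.8 CPM at 2 months and 0.157, 0.252 and 0.0201 CPM at 24 months (log2 fold change -6.21, SE 0.96, adjusted p = 0.00186), with 28.8, 6.13 and 35.2 CPM at 12 months. Pnliprp1, a pancreatic lipase-related protein, fell from 2277, 3887 and 2642 to 14.8, 189.6 and 228 CPM (log2 fold change -4.35, SE 0.73, adjusted p = 0.00284). The choice of both genes required that the ages do not overlap. In Pnliprp1 replicate 1 of the old glands was more than 10-fold below the other 2 old libraries. Slco1a6 and Slco1a5, neighbouring members of the organic anion transporter family on chromosome 6, fell together. Slco1a6 was at 11.5, 14 and 14.4 and then 1.41, 1.44 and 0.846 CPM (log2 fold change -3.44, SE 0.21, adjusted p = 6.65e-06), and Slco1a5 at 13.7, 12.9 and 19.6 and then 2.67, 1.63 and 2.68 CPM (log2 fold change -2.72, SE 0.27, adjusted p = 0.000139). At 12 months both were near their young level, 9.46, 7.91 and 10.2 CPM for Slco1a6 and 12.1, 19.2 and 24 CPM for Slco1a5.

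Further decreases took in genes of signalling and metabolism. Tcfl5, a transcription factor, fell from 7.77, 10.7 and 8.21 to 1.7, 0.986 and 1.33 CPM (log2 fold change -2.74, SE 0.22, adjusted p = 3.37e-05). Slc38a1, an amino acid transporter that brings in glutamine, fell from 26.9, 19.97 and 27.8 to 4.56, 5.59 and 4.29 CPM (log2 fold change -2.37, SE 0.23, adjusted p = 0.000118), and Slc16a12, a monocarboxylate transporter family member, from 15.5, 12.4 and 10.5 to 3.04, 1.4 and 1.01 CPM (log2 fold change -2.84, SE 0.33, adjusted p = 0.000303). In all 3 the young libraries lay above the old ones, which the choice of these genes required. The 12-month libraries lay between the ages in Tcfl5 and Slc16a12, and in Slc38a1 their replicate 3 stood within the range of the old ones. Camk2b, a subunit of a calcium-regulated kinase, and Cacna1b, the pore of an N-type calcium channel, had log2 fold changes of -3.84 and -2.85 (adjusted p = 0.000936 and 0.00363). Stc2, the secreted stanniocalcin 2, was at 3.16, 3.32 and 4.9 and then 0.236, 0.619 and 0.403 CPM (log2 fold change -3.16, SE 0.39, adjusted p = 0.000497), and Adh7, an alcohol dehydrogenase that can act on retinol, at 3.74, 5.08 and 6.17 and then 0.838, 1.31 and 0.463 CPM (log2 fold change -2.53, SE 0.36, adjusted p = 0.00118). Igdcc4, Lipo5 and Esp31 completed the 15 largest decreases among genes with an assigned name, with log2 fold changes of -3.35, -3.18 and -3.27. A pair of abundant genes without an assigned name, chosen for naming after their values were seen, lie close together on chromosome 4 and fell at this age. Gm12886 (ENSMUSG00000078576, chromosome 4, 121414735 to 121423099) was at 2022, 2939.6 and 1772 CPM at 2 months, at 1471, 959.8 and 1740.0 by 12 months and at 34, 17.8 and 7.73 by 24 months (log2 fold change -6.82, SE 0.52, adjusted p = 2.89e-05). Gm12888 (ENSMUSG00000073764, chromosome 4, 121316316 to 121324917) was at 5165, 8053 and 6333 CPM at 2 months, at 4994, 3426 and 5719 by 12 months and at 539, 474 and 275 by 24 months (log2 fold change -3.93, SE 0.30, adjusted p = 2.89e-05). Every old library was below every library of the other ages in both.

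**Figure D2:**
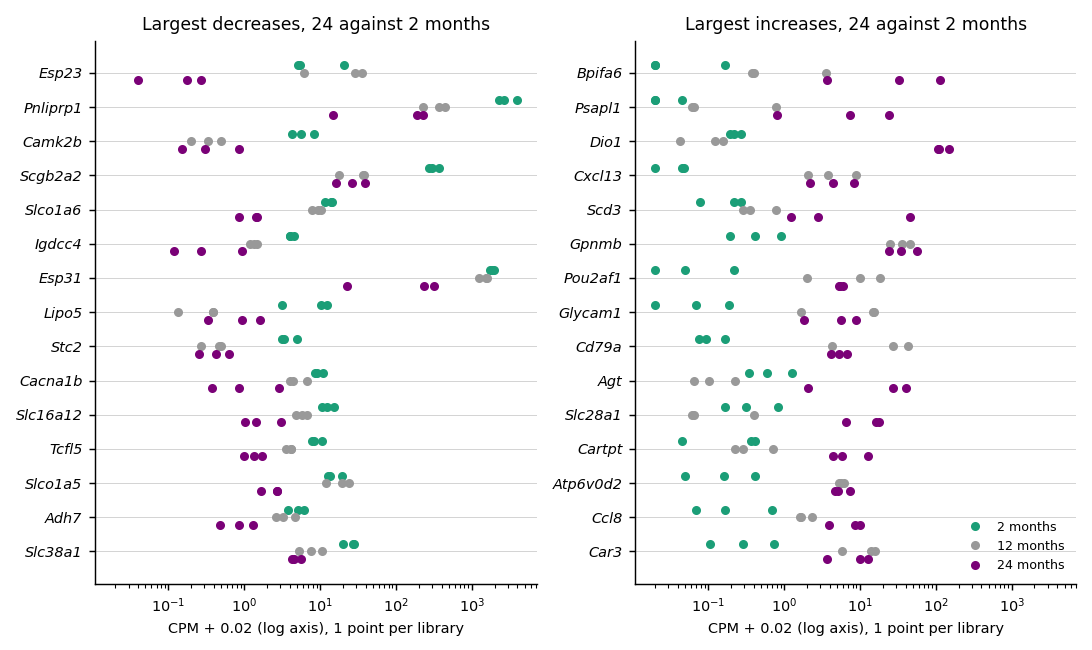
Points are single libraries of 2, 12 and 24 months, on a logarithmic axis of CPM + 0.02, for the 15 largest decreases and the 15 largest increases. Genes were chosen by log2 fold change between 24 and 2 months among called genes of at least 2 CPM whose ages do not overlap. Predicted genes and all antigen receptor genes, constant regions included, were left out. Dio1 and Slc28a1 sit at their young level at 12 months, whereas Gpnmb, Cxcl13 and Camk2b have moved by then, and Bpifa6, Psapl1, Scd3 and Agt spread widely among the 24-month libraries.

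Lymphocyte genes rose from low levels. Of 23 tested B cell genes 16 were higher and 0 lower at 24 months, with a median log2 fold change of 3.82, against 9.82% higher and a median of 0.01 over all tested genes. The shares over all tested genes, 9.82% higher and 7.56% lower, stand against every list count that follows. Counts near them say little about a list. Of 22 tested T cell genes 17 were higher and 0 lower, with a median of 2.88. Ms4a1, the gene of the B cell surface protein CD20, had 2, 1 and 1 counts in the young libraries and 92, 99 and 153 in the old ones, or 2.41, 2.27 and 3.08 CPM (log2 fold change 6.04, SE 0.97, adjusted p = 0.00234). The gene Cd79a, needed for signals from the B cell receptor, was at 0.0747, 0.147 and 0.0566 and then 4.11, 5.32 and 6.81 CPM (log2 fold change 5.85, SE 0.97, adjusted p = 0.00273). All old libraries lay above all young ones in both genes, which the choice of Cd79a required, and within a narrow range.

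Pou2af1, a transcription coactivator of B cells that plasma cells also make, was at 0, 0.0294 and 0.198 and then 5.26, 5.48 and 5.9 CPM (log2 fold change 6.19, SE 0.92, adjusted p = 0.00155). Fcrla, a B cell relative of the Fc receptors, had a log2 fold change of 4.95 (SE 0.78, adjusted p = 0.00216). B cell genes stood lower in old glands than in those of 12 months: 7 of the 23 were lower at 24 than at 12 months and 0 higher, with a median of -2.03, beside 4.39% of all genes called in that comparison. The summed level of the list was 13, 12.5 and 14.7 CPM at 2 months, reached 219, 335 and 49.3 at 12 months and came to 44.8, 52.6 and 74.1 at 24 months. The 12-month replicate 3 fell within the range of the old libraries, and the other 12-month libraries lay above it. Under limma voom with sample weights 0 of the 23 passed the test against 2 months.

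Among T cell genes, Cd3g, a CD3 chain that signals for the T cell receptor, was at 0.249, 0.0587 and 0.141 CPM in young and 1.7, 1.44 and 2.56 CPM in old glands (log2 fold change 3.61, SE 0.53, adjusted p = 0.00138). Cd4, the coreceptor of helper T cells, was at 0.324, 0.0881 and 0.255 and then 1.6, 3.37 and 4.45 CPM (log2 fold change 3.78, SE 0.57, adjusted p = 0.00174), and Cd8a, the coreceptor of cytotoxic T cells, at 0.174, 0.0294 and 0 and then 1.28, 1.05 and 2.11 CPM (log2 fold change 4.32, SE 0.77, adjusted p = 0.0039). Old and young libraries did not overlap in any of the 3, as in nearly all called genes. Trac, the constant region of the T cell receptor alpha chain, had a log2 fold change of 3.12 (SE 0.51, adjusted p = 0.00249), and Thy1, which fibroblasts also make, of 1.77 (0.25, 0.00101). The median of the 22 between 24 and 12 months was -0.66. Of the T cell genes, 7 were called without the salivary-rich libraries and 10 under voom.

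Of 11 tested genes of cytotoxic lymphocytes 5 were higher, and 3 without the salivary-rich libraries. Gzmk, a granzyme, had 1 count over the young group and 80 over the old one, a 66.6-fold ratio whose 95% interval from counting runs from 11.6 to 2665 (adjusted p = 0.00469). Nkg7, a granule protein of cytotoxic and NK cells, was at 0.349, 0.558 and 0.311 and then 2.25, 1.19 and 3.72 CPM (log2 fold change 2.56, SE 0.45, adjusted p = 0.00375), and Ccl5, a chemokine they secrete, at 1.84, 0.94 and 1.19 and then 5.5, 4.17 and 10.6 CPM (log2 fold change 2.34, SE 0.42, adjusted p = 0.0039). Replicate 3 was the highest old library in Nkg7 and Ccl5, but not in Gzmk. Of 11 regulatory and checkpoint T cell genes 4 were higher (2 without 2-month replicate 1 or 24-month replicate 1, 1 without 2-month replicate 3 and 0 without 2-month replicate 2 or 24-month replicate 3; 0 without the salivary-rich libraries and 2 under voom). Lag3, an inhibitory receptor, was at 0.125, 0.206 and 0.226 and then 0.498, 0.55 and 1.25 CPM (adjusted p = 0.0251), and was not called without 2-month replicate 1, 2 or 3, or 24-month replicate 3 (adjusted p = 0.0731, 0.0736, 0.0598 and 0.124). Foxp3, the transcription factor of regulatory T cells, had 2, 0 and 0 counts in young and 6, 2 and 31 in old libraries and was not called (adjusted p = 0.0875).

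Germinal centres are where B cells mutate their receptors. Of 11 tested genes in a joint list of germinal centre and follicular helper genes 5 were higher, with a median of 1.18. The list mixes both kinds, so this is no count of germinal centre B cell genes. Its member Rgs13 had no count in the libraries of 2 and 24 months. Fcrl5, another B cell relative of the Fc receptors, had 0 counts in young glands and 98 over the old group, at least 27.2-fold more with the young group set to 3 counts (adjusted p = 0.00886). S1pr2, a receptor that keeps B cells in the germinal centre, was at 1.52, 1.23 and 0.906 and then 1.65, 2.98 and 3.68 CPM (adjusted p = 0.0231), and was not called without 2-month replicate 2 or 3, or 24-month replicate 2 or 3 (adjusted p = 0.0737, 0.0881, 0.0617 and 0.0993). The number called was 3 without 24-month replicate 2, 2 without 2-month replicate 3 and 1 without 2-month replicate 2 or 24-month replicate 3. It was 1 without the salivary-rich libraries and 3 under voom.

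**Figure D3:**
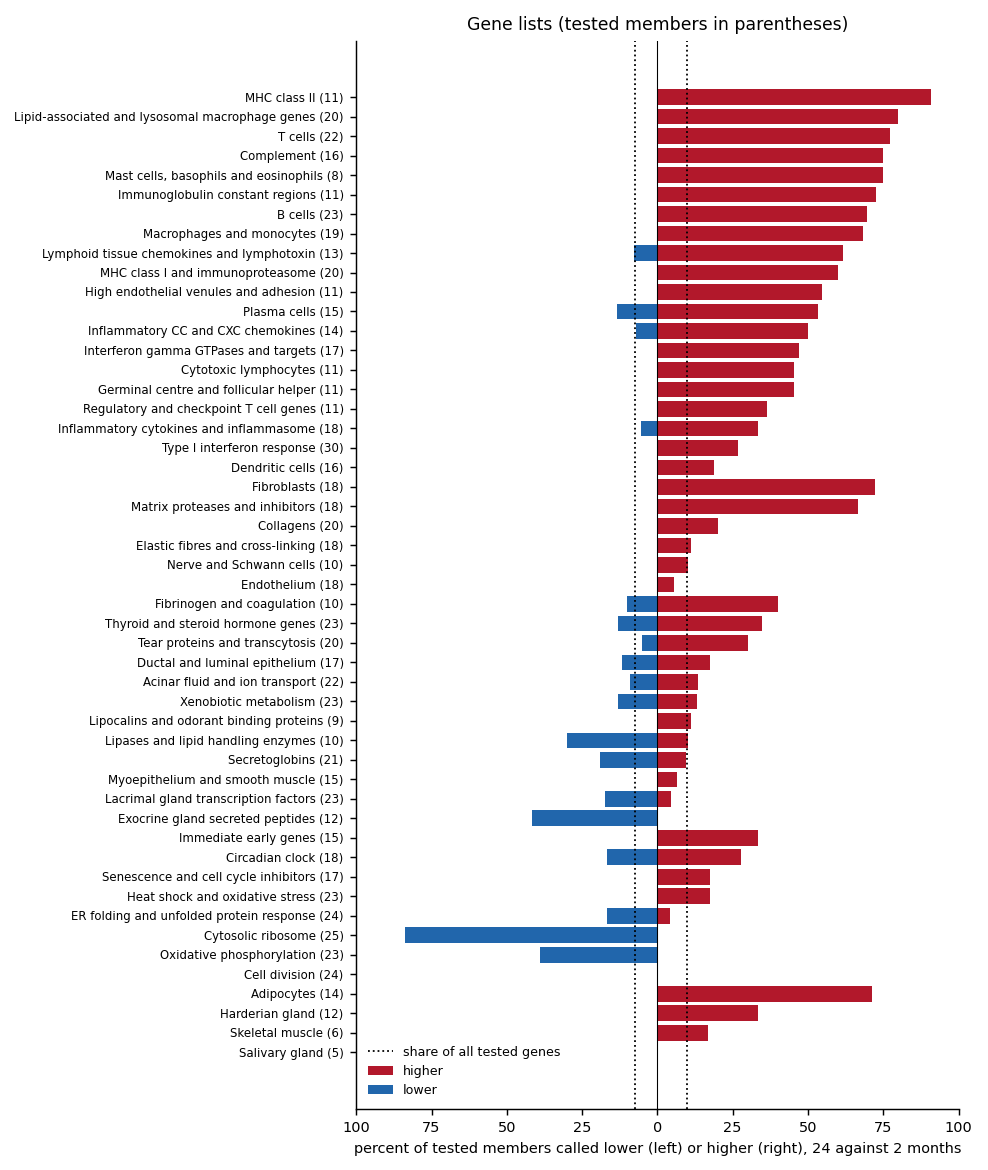
Bars give, for each list with at least 5 tested genes, the percent of tested members called higher (right) or lower (left) at 24 than at 2 months, with the share over all tested genes, 9.82% and 7.56%, as dotted lines. MHC class II, lipid-associated macrophage, T cell, complement and mast cell lists reach furthest to the right and the cytosolic ribosome list furthest to the left.

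Immunoglobulin transcripts took 0.00147, 0.000995 and 0.0163% of all counts at 2 months, 0.271, 0.327 and 0.0685% by 12 months and 0.122, 0.324 and 0.294% by 24 months. The mean share was 0.2467 ± 0.1093% (SD, n = 3) in old and 0.006259 ± 0.008706% in young glands, a difference of 0.2405 percentage points with a two-sided exact permutation p = 0.1, the smallest that 3 against 3 libraries allow. Every old library exceeded every young one by over 7-fold. Of 11 tested constant regions 8 were higher (median 6.56), and 2 under voom. Ighm, the heavy chain of IgM, stood at 3.61, 1.41 and 4.56 CPM at 2 months and 469, 494 and 767 CPM at 24 months (log2 fold change 7.49, SE 0.61, adjusted p = 4.36e-05). Ighg2b, a heavy chain of IgG, was at 0.0249, 0 and 0.453 and then 25, 165 and 126 CPM (log2 fold change 9.37, SE 1.13, adjusted p = 0.000414), and Iglc1, a lambda light chain constant region, at 0.199, 0 and 1.1 and then 100, 98.9 and 6.74 CPM (log2 fold change 7.30, SE 1.12, adjusted p = 0.00179). Ighm was even among old glands, while Ighg2b was low in replicate 1 and Iglc1 low in replicate 3. Counting can mix up reads of the closely alike Ighg genes, which makes each IgG value uncertain.

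The class mix of heavy chain constant counts differed among the old libraries. Ighm took 79.5, 37.2 and 73.8% of them in replicates 1, 2 and 3, Ighg genes 17.9, 38.4 and 18.3%, and Igha 2.61, 24.3 and 7.27%. The library richest in Igha and Ighg, replicate 2, is the one with salivary transcripts, whose part in this was not tested. Igha, which encodes the IgA heavy chain, stood at 4.63, 3.88 and 72.9 CPM in young glands, where replicate 3, also rich in salivary transcripts, was the highest, and at 15.4, 323 and 75.6 CPM in old ones. It did not pass the test (log2 fold change 2.35, SE 1.095, adjusted p = 0.164), and its log2 fold change was 5.01 without 2-month replicate 3 and 0.75 without 24-month replicate 2. The single most used kappa V segment of 24-month replicate 1, Igkv12-89, took 44.5% of its Igkv counts, and Iglv1 took 98.4% of its Iglv counts. In replicate 2 the most used kappa segment took 9.91%, and in replicate 3 it took 14.8%.

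Plasma cell genes moved both ways: 8 of 15 tested were higher (53.3%) and 2 lower (13.3%), against 9.82% and 7.56% of all tested genes. Jchain, the joining chain of secreted antibody polymers, was at 0.947, 0.675 and 18.3 CPM in young and 76.4, 127 and 93.5 CPM in old glands (log2 fold change 3.91, SE 0.93, adjusted p = 0.0146), and the young replicate 3 stood far above the other young ones. Its log2 fold change was 6.92 without 2-month replicate 3, and it was not called without 2-month replicate 2 (adjusted p = 0.0515). Mzb1, a chaperone of B cells and plasma cells, rose from 0.0249, 0.264 and 0.255 to 4.01, 4.56 and 3.79 CPM (log2 fold change 4.53, SE 0.69, adjusted p = 0.00174), and Prdm1, the transcription factor of plasma cell fate, from 0.424, 0.264 and 0.736 to 1.83, 1.63 and 1.81 CPM (log2 fold change 1.88, SE 0.37, adjusted p = 0.00617). Both genes were even among the old libraries. Fkbp11, a folding enzyme of secretory cells that the gland's own acini also make, fell from 39.9, 33.3 and 31.5 to 16.6, 12.6 and 12.1 CPM (log2 fold change -1.35, SE 0.13, adjusted p = 0.000139), with 12 months between, at 22.4, 20.1 and 19.1 CPM. The number of higher plasma cell genes was 5 without 2-month replicate 3, or 24-month replicate 2 or 3 and 3 without 2-month replicate 2, 3 without the salivary-rich libraries and 5 under voom. The number lower was 1 without 2-month replicate 3 or 24-month replicate 2, and 1 without the salivary-rich libraries.

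The chemokines that draw lymphocytes rose with them. Of 13 tested genes of lymphoid tissue chemokines and lymphotoxin 8 were higher and 1 lower (median 2.20). Cxcl13, which draws B cells into follicles, had 1, 0 and 1 counts in young and 84, 191 and 411 in old libraries, a 286-fold ratio whose 95% interval from counting runs from 78.8 to 2364 (adjusted p = 0.000414). Its receptor Cxcr5 had 1 count over the young group and 144 over the old one, a 119.95-fold ratio whose 95% interval from counting runs from 21.2 to 4770.4 (adjusted p = 0.00338). Both genes were highest in 24-month replicate 3. Cxcl12, a chemokine of stromal cells, rose from 21.5, 14.7 and 19.3 to 38.8, 40.5 and 53.5 CPM (log2 fold change 1.26, SE 0.18, adjusted p = 0.00111), and its receptor Cxcr4 from 0.424, 0.323 and 0.368 to 2.36, 3.46 and 3.3 CPM (log2 fold change 3.02, SE 0.33, adjusted p = 0.000249). Those that were lower numbered 0 without any 1 library other than 12-month replicate 1 or 3, or 24-month replicate 1. Of the 13, 5 were higher and 0 lower without the salivary-rich libraries, and 4 were higher under voom. Ccl19 and Ccl21a, the chemokines of the T cell zone, had too few counts to be tested, with 4, 2 and 6 counts of Ccl19 and 0, 0 and 0 of Ccl21a in the old libraries.

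Genes of high endothelial venules, the vessels through which lymphocytes enter a lymph node, and of adhesion were higher for 6 of 11 tested members (3 without 2-month replicate 2 or 3, or 24-month replicate 3). The number was also 3 without the salivary-rich libraries and under voom. Glycam1, a mucin of these venules, was at 0.0498, 0 and 0.17 CPM in young and 1.83, 5.68 and 8.9 CPM in old glands (log2 fold change 6.18, SE 1.09, adjusted p = 0.00371). Vcam1, an adhesion molecule of activated endothelium and stroma, was at 1.05, 1.53 and 1.81 and then 4.77, 5.75 and 8.28 CPM (log2 fold change 2.11, SE 0.29, adjusted p = 0.000858), and Enpp2, the secreted enzyme autotaxin, at 4.16, 2.76 and 3.03 and then 8.48, 6.37 and 12.5 CPM (log2 fold change 1.46, SE 0.27, adjusted p = 0.00488). The old libraries lay above the young ones in all 3. Of 18 tested general endothelial genes 1 was higher and 0 lower, with a median of 0.22. The number higher was 0 without any 1 library other than 12-month replicate 3, and 0 without the salivary-rich libraries and under voom.

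MHC class II genes, which present antigen to helper T cells, were higher for 10 of 11 tested members and lower for 0, with a median log2 fold change of 1.104. H2-Aa and H2-Eb1 encode chains of the presenting molecules, and H2-Oa a chain of the modulator that B cells make. Their promoters are shown because class II promoters are known for a shared Y box, bound by the factor NF-Y, and because these members moved together. The sequences are parts of the RefSeq windows of GRCm38.p6, written 5′ to 3′ on the strand of the gene. Each is the stretch around the match and ends at or before the RefSeq start of the gene. The GENCODE M21 start of H2-Oa, at 34092340, lies within its printed stretch. The letters of the Y box, CTGATTGG, are in capitals.
H2-Aa (chr17:34287827-34287914, minus strand): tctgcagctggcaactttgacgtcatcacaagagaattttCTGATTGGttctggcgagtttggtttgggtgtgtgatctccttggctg
H2-Eb1 (chr17:34305765-34305852, plus strand): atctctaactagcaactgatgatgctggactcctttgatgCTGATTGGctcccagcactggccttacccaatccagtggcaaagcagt
H2-Oa (chr17:34092293-34092378, plus strand): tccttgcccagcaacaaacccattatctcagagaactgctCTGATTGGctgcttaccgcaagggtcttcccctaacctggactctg
The box begins 51, 62 and 46 bases before the RefSeq start of H2-Aa, H2-Eb1 and H2-Oa. Of the 8 class II members with a window, 4 held these letters on either strand (H2-Eb2 is the other), against 4.1% of 32851 windows and 6.33% of 10782 tested genes with a window. A match is a description of the letters and no sign of binding.

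H2-Aa stood at 60.4, 53.5 and 58.1 CPM at 2 months and 95.8, 83 and 160.3 CPM at 24 months (log2 fold change 0.98, SE 0.28, adjusted p = 0.0303). H2-Eb1 was at 39.6, 32.7 and 37.6 and then 63.2, 55.7 and 102 CPM (log2 fold change 1.004, SE 0.26, adjusted p = 0.0231), and H2-Oa at 0.149, 0.0587 and 0.113 and then 0.628, 0.665 and 1.51 CPM (log2 fold change 3.08, SE 0.81, adjusted p = 0.0226). The young libraries were tight, every old one was higher, and replicate 3 was the highest of the old ones. These calls rest on few libraries. H2-Aa was not called without 2-month replicate 1, 2 or 3, or 24-month replicate 3 (adjusted p = 0.0629, 0.113, 0.0872 and 0.124). H2-Eb1 was not called without 2-month replicate 2 or 3, or 24-month replicate 3 (adjusted p = 0.0988, 0.0687 and 0.0915), nor was H2-Oa without 2-month replicate 2 or 3, or 24-month replicate 3 (adjusted p = 0.0962, 0.072 and 0.0802). Across the list the number called was 6 without 12-month replicate 1, 3 without 2-month replicate 1, 1 without 2-month replicate 2 and 0 without 2-month replicate 3 or 24-month replicate 3, 1 without the salivary-rich libraries and 2 under voom, although all 11 log2 fold changes were above 0.

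MHC class I genes, which present antigen to cytotoxic T cells, and immunoproteasome subunits were higher for 12 of 20 tested members and lower for 0 (median 0.88). B2m, the light chain of class I molecules, was at 70.04, 56.6 and 57.6 CPM in young and 139.7, 147 and 287 CPM in old glands (log2 fold change 1.64, SE 0.28, adjusted p = 0.00319), and Tap2, a transporter that loads peptides, at 5.58, 5.78 and 5.94 and then 10.1, 10.1 and 14.9 CPM (log2 fold change 1.02, SE 0.20, adjusted p = 0.00654). Nlrc5, the coactivator of class I genes, was at 0.698, 0.235 and 0.368 and then 1.94, 1.79 and 4.07 CPM (log2 fold change 2.56, SE 0.52, adjusted p = 0.00719). The old libraries were above the young ones throughout, with replicate 3 the highest. The number called was 7 without 2-month replicate 2 or 24-month replicate 3, and 5 without the salivary-rich libraries.

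Part of the interferon-stimulated genes rose, and 9 of the type I list stood higher at 24 than at 12 months. All 30 tested members of the type I list had a log2 fold change above 0, with a median of 0.85, and 8 of them passed the test. Against 12 months 9 were higher and 0 lower (median 1.13), while the median between 12 and 2 months was -0.31. The mean summed level of the list was 166 CPM at 2 months, 140 CPM at 12 months and 267 CPM at 24 months. The libraries of 2 and 12 months overlapped, but the difference from 12 months partly reflects the lower mean at that age. Of 17 tested GTPases and targets of interferon gamma 8 were higher and 0 lower (median 1.36). Promoters of interferon-stimulated genes are known for paired GAAA letters bound by interferon regulatory factors, so 3 of them are shown on the same terms, with GAAANNGAAA or its complement in capitals.
Gbp2 (chr3:142620564-142620653, plus strand): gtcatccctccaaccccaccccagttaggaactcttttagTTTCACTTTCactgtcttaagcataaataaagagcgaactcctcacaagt
Igtp (chr11:58199482-58199555, plus strand): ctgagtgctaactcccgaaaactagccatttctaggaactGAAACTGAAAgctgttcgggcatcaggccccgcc
Oas1a (chr5:120907526-120907585, minus strand): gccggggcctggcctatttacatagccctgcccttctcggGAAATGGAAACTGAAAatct
In Oas1a a pair of matches overlap. The GENCODE M21 start of Gbp2, at 142620602, lies within its printed stretch. Of the type I members with a window, 12 of 21 held a match on either strand, and of the interferon gamma members 10 of 13, against 3.44% of 32851 windows and 3.85% of the tested genes with a window.

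Oas1a, a sensor enzyme for viral RNA, was at 0.573, 1.29 and 0.934 CPM in young and 4.14, 2.7 and 4.93 CPM in old glands (log2 fold change 2.08, SE 0.35, adjusted p = 0.00305), with 1.06, 1.8 and 1.16 CPM at 12 months (24 against 12 months: adjusted p = 0.0236). Reads of Oas1a and its near-identical neighbour Oas1g can be assigned to one another. Zbp1, a sensor of unusual nucleic acids, was at 0.598, 0.822 and 0.34 and then 3.3, 1.38 and 3.38 CPM (log2 fold change 2.19, SE 0.49, adjusted p = 0.0112). In both genes replicate 2 was the lowest of the old libraries, above all young ones. Gbp2, a guanylate binding protein, was at 2.82, 3.55 and 3.82 and then 7.83, 5.34 and 20.1 CPM (log2 fold change 1.71, SE 0.39, adjusted p = 0.0121). Its log2 fold change was 0.96 without 24-month replicate 3, and it was not called without 2-month replicate 2 (adjusted p = 0.0514). Igtp was called at an adjusted p of 0.0146 and was not called without 2-month replicate 3 or 24-month replicate 3 (adjusted p = 0.0629 and 0.063). Irgm2, an immunity-related GTPase with near copies in the genome, was at 2.52, 2.99 and 2.49 and then 7.7, 4.22 and 11.6 CPM (log2 fold change 1.56, SE 0.33, adjusted p = 0.00825). The annotated spans of Igtp and Irgm2 overlap on the plus strand, which makes the values of each uncertain. Type I members called higher numbered 15 without 24-month replicate 2, 5 without 24-month replicate 1, 4 without 2-month replicate 1, 3 without 24-month replicate 3 and 2 without 2-month replicate 3, 4 without the salivary-rich libraries, 17 with library totals alone and 21 with no filter on low counts. The fit without that filter gave adjusted p-values that were smaller by many orders of magnitude for strongly changed genes such as C3 (3.56e-142, against 0.000131 with the filter), so its calls are doubtful. Those of the interferon gamma list numbered 5 without 2-month replicate 1, 4 without 2-month replicate 2 or 3 and 3 without 24-month replicate 3, 5 without the salivary-rich libraries and 4 under voom.

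Macrophage genes rose in most of their members. Of 19 tested macrophage and monocyte genes 13 were higher and 0 lower (median 1.42), and of 20 genes of lipid-associated and lysosomal macrophages 16 were higher and 0 lower (median 1.73). Cd68, a lysosomal protein of macrophages, stood at 4.44, 2.94 and 4.39 CPM at 2 months and 16.6, 21.6 and 20.7 CPM at 24 months (log2 fold change 2.32, SE 0.19, adjusted p = 4.58e-05). The macrophage lysozyme gene Lyz2 was at 29.2, 11.5 and 21.5 and then 105, 139.5 and 151 CPM (log2 fold change 2.67, SE 0.28, adjusted p = 0.000166), and Ly6c2, a marker of blood monocytes, at 0.174, 0.235 and 0.34 and then 3.69, 7.47 and 4.75 CPM (log2 fold change 4.40, SE 0.47, adjusted p = 0.000185). The ages did not overlap in these genes. Gpnmb, a glycoprotein of lipid-laden macrophages, was at 0.897, 0.176 and 0.396 and then 24, 56.1 and 34.7 CPM (log2 fold change 6.23, SE 0.45, adjusted p = 2.53e-05), and Atp6v0d2, a subunit of the proton pump of lysosomes, at 0.399, 0.0294 and 0.141 and then 4.71, 7.43 and 5.19 CPM (log2 fold change 4.85, SE 0.44, adjusted p = 8.33e-05). Spp1, osteopontin, had 2 counts over the young group and 251 over the old one, a 105-fold ratio whose 95% interval from counting runs from 28.6 to 868 (adjusted p = 0.000118). At 12 months Gpnmb was at 25.2, 35.6 and 46 CPM and Atp6v0d2 at 5.29, 5.56 and 6.14 CPM, and neither was called between 24 and 12 months (adjusted p = 0.895 and 0.973). The number of macrophage and monocyte genes called was 8 without 24-month replicate 3.

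Complement genes and several myeloid chemokines rose. Of 16 tested complement genes 12 were higher and 0 lower (median 1.48). C3, the central component, rose from 7.55, 3.2 and 5.26 to 46.5, 45.9 and 80.9 CPM (log2 fold change 3.43, SE 0.34, adjusted p = 0.000131), and C1qb, a chain of the initiating protein that macrophages make, from 14.6, 14.6 and 16.9 to 38.4, 34.2 and 54.7 CPM (log2 fold change 1.47, SE 0.17, adjusted p = 0.000287). C1s1, a protease of the same pathway that stromal cells make, rose from 3.36, 3.11 and 4.02 to 9.72, 8.82 and 14.2 CPM (log2 fold change 1.64, SE 0.20, adjusted p = 0.000414). In C3 the old replicate 3 was the highest and the young replicate 2 the lowest. Of 14 inflammatory chemokines 7 were higher and 1 lower (2 without 24-month replicate 3 and 0 without the salivary-rich libraries). Ccl9 rose from 82.7, 72.2 and 59.6 to 133, 301 and 470.5 CPM (log2 fold change 2.08, SE 0.33, adjusted p = 0.00236), Ccl6 from 5.28, 2.7 and 4.44 to 16.5, 18.2 and 21.1 CPM (log2 fold change 2.16, SE 0.20, adjusted p = 9.40e-05) and Ccl8 from 0.0498, 0.147 and 0.679 to 8.48, 3.92 and 10.2 CPM (log2 fold change 4.70, SE 0.60, adjusted p = 0.000611). All 3, which draw monocytes and related cells, were also higher than at 12 months (adjusted p = 0.00513, 0.0012 and 0.0367). Without the salivary-rich libraries 10 complement genes were called.

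Mast cell genes rose. Of 8 tested genes of mast cells, basophils and eosinophils 6 were higher (median 2.82), and 3 under voom. Mcpt4, a protease of connective tissue mast cells, was at 0.0997, 0.0294 and 0.255 CPM at 2 months, at 0.316, 0.45 and 0.682 by 12 months and at 4.06, 1.83 and 2.86 by 24 months (log2 fold change 4.48, SE 0.57, adjusted p = 0.000625; 24 against 12 months: adjusted p = 0.0111). Cpa3, a carboxypeptidase of mast cells, had 3 counts over the young group and 148 over the old one, a 41.1-fold ratio whose 95% interval from counting runs from 13.8 to 202 (adjusted p = 0.00675). Kit, the receptor that mast cells need and that some duct cells also make, was at 21.2, 19.3 and 16.8 and then 24.7, 30.4 and 32.4 CPM (log2 fold change 0.61, SE 0.13, adjusted p = 0.00867). Every old library lay above every young one in Mcpt4, Cpa3 and Kit. Prg2, a granule protein of eosinophils, had 2 counts over the young group and 140 over the old one, a 58.3-fold ratio whose 95% interval from counting runs from 15.8 to 486 (adjusted p = 0.00113). Of 16 dendritic cell genes 3 were higher, or 18.8% against 9.82% of all tested genes. The number was 0 without 2-month replicate 2, 0 without the salivary-rich libraries and 1 under voom. Of 4 tested neutrophil genes 1 was higher. The number was 4 without 12-month replicate 3 or 24-month replicate 1, 3 without 12-month replicate 2 and 0 without 2-month replicate 2, or 24-month replicate 2 or 3. It was also 0 without the salivary-rich libraries. The list includes Ltf, the lactoferrin that acinar cells secrete, so its count says little about neutrophils.

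Inflammatory cytokine and inflammasome genes were higher for 6 of 18 and lower for 1. The 6 became 3 without 2-month replicate 3 or 24-month replicate 2 and 2 without 2-month replicate 2 or 24-month replicate 3, and 0 without the salivary-rich libraries. Casp1, the protease of inflammasomes, rose from 1.25, 0.763 and 1.16 to 2.36, 3.44 and 4.09 CPM (log2 fold change 1.64, SE 0.30, adjusted p = 0.00489), while Pycard, the adaptor that recruits it, fell from 45.1, 43.8 and 36.7 to 24.6, 20.1 and 19.2 CPM (log2 fold change -0.98, SE 0.14, adjusted p = 0.00135).

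Fibroblast genes rose, many of them between 12 and 24 months. Of 18 tested fibroblast genes 13 were higher and 0 lower than at 2 months, with a median of 1.07. Set against 12 months, 9 were higher and 0 lower, with a median of 0.94, while the median between 12 and 2 months was 0.02. Gsn, the actin-severing protein gelsolin, was at 93.1, 91.5 and 113 CPM at 2 months, at 85.8, 99.7 and 113 by 12 months and at 184, 149.8 and 232 by 24 months (log2 fold change 0.93, SE 0.16, adjusted p = 0.00339; 24 against 12 months: adjusted p = 0.0076). Dpep1, a dipeptidase of some fibroblasts, was at 6.03, 4.73 and 5.66 CPM at 2 months, at 5.06, 6.34 and 6.04 by 12 months and at 15.7, 10.7 and 18.5 by 24 months (log2 fold change 1.45, SE 0.19, adjusted p = 0.00072), and Ly6a, a surface protein of stromal progenitors and of endothelium, at 5.43, 7.34 and 8.4 CPM at 2 months, at 12.3, 13.8 and 7.86 by 12 months and at 24.2, 17.9 and 24.8 by 24 months (log2 fold change 1.66, SE 0.22, adjusted p = 0.000667). In Gsn and Dpep1 the libraries of 2 and 12 months overlapped and all old ones lay above both. The number of fibroblast genes called was 8 without 2-month replicate 2 or 24-month replicate 3, and 8 without the salivary-rich libraries.

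Of 20 tested collagens 4 were higher and 0 lower, with a median of 0.47. The number called was 1 without 2-month replicate 1 and 0 without 2-month replicate 2 or 24-month replicate 3, and 1 under voom. Col1a1, the main collagen of scars, was at 16.5, 10.7 and 21.3 CPM in young and 13.9, 13.9 and 21.4 CPM in old glands, with overlap, and did not pass the test (log2 fold change 0.02, SE 0.23, adjusted p = 0.957). Col15a1, a collagen of basement membranes, was at 8.62, 5.81 and 9.25 and then 12.9, 11.9 and 18.2 CPM (adjusted p = 0.0133), and was not called without 2-month replicate 2 or 24-month replicate 3 (adjusted p = 0.057 and 0.0511). Of 18 elastic fibre and cross-linking genes 2 were higher (1 without any 1 library other than 2-month replicate 3, 12-month replicate 3 or 24-month replicate 2; 1 without the salivary-rich libraries and 1 under voom). Efemp1, an extracellular fibulin, rose from 9.42, 10.7 and 10.5 to 16.4, 14.6 and 22.5 CPM (log2 fold change 0.80, SE 0.15, adjusted p = 0.00469).

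Matrix proteases and their inhibitors were higher for 12 of 18 tested members (median 1.03). The 12 became 7 without 24-month replicate 3 and 6 without 2-month replicate 2, and 7 without the salivary-rich libraries. Mmp3, stromelysin 1, rose from 6.5, 4.9 and 7.84 to 14.2, 13 and 19.97 CPM (log2 fold change 1.29, SE 0.21, adjusted p = 0.0025). The protease inhibitor gene Timp2 rose from 39.2, 35.4 and 37.7 to 66.8, 62.4 and 85.3 CPM (log2 fold change 0.94, SE 0.12, adjusted p = 0.000602) and Timp3 from 1.47, 1.29 and 1.84 to 5.05, 4.29 and 4.63 CPM (log2 fold change 1.60, SE 0.24, adjusted p = 0.00163). Proteases and inhibitors thus rose side by side, and the ages did not overlap in these 3 genes. Adam8, a sheddase of myeloid cells, rose from 0.0997, 0.0881 and 0.0849 to 1.07, 2.11 and 1.41 CPM (log2 fold change 4.03, SE 0.43, adjusted p = 0.000185).

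**Figure D4:**
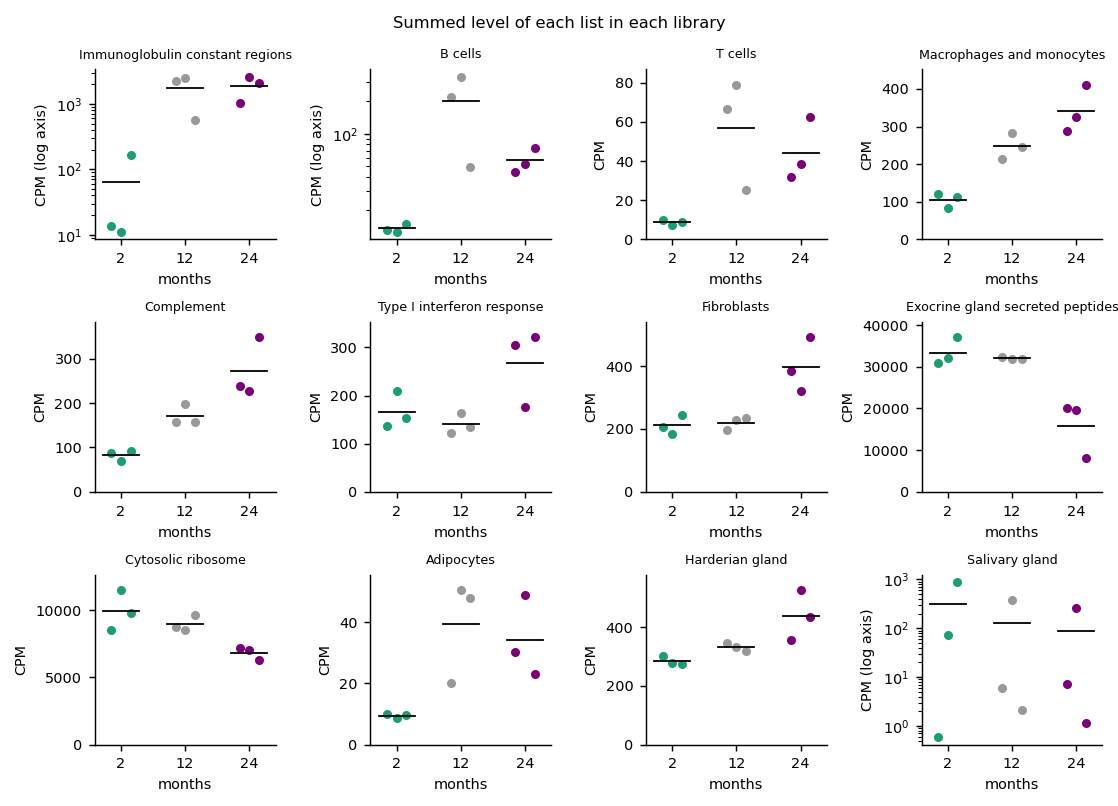
Points give the summed CPM of the genes of 12 lists in each library of 2, 12 and 24 months, with bars at the mean of the 3 libraries of an age. The mean of B cell genes is highest at 12 months, the 24-month libraries of fibroblast and complement genes lie above all others, and those of the exocrine gland secreted peptides and cytosolic ribosome genes lie below all others.

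Among the secreted products of the gland, exocrine gland secreted peptides and single secretoglobins fell. Of 12 tested secreted peptide genes 5 were lower and 0 higher (3 lower without the salivary-rich libraries and 8 in the doubtful fit with no filter on low counts; 1 higher without 24-month replicate 3), with a median of -1.57, against 7.56% lower over all tested genes. Their summed level was 30858, 32120.0 and 37029 CPM at 2 months and 20037, 19553 and 8111 CPM at 24 months, with all old libraries below all young ones and replicate 3 the lowest. Esp38 fell from 19.5, 27.4 and 28.3 to 10.9, 5.41 and 1.83 CPM (log2 fold change -2.06, SE 0.41, adjusted p = 0.00677), Esp3 from 183, 206 and 152 to 64.1, 78.5 and 21 CPM (log2 fold change -1.73, SE 0.36, adjusted p = 0.00762) and Esp34 from 1.45, 1.61 and 2.86 to 0.183, 0.458 and 0.0403 CPM (log2 fold change -3.12, SE 0.61, adjusted p = 0.00592). In each of them the old replicate 3 was the lowest library. Esp31, which was not on the list, fell from 1984, 1718 and 1871 to 321, 234 and 22.5 CPM (log2 fold change -3.27, SE 0.64, adjusted p = 0.00600). Counting can mix up reads of related members, which makes each value uncertain.

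Of 21 tested secretoglobins, small secreted proteins of the tear film, 2 were higher and 4 lower than at 2 months, and the median was 0.81. Those that were higher numbered 1 without 2-month replicate 1, 2 or 3, or 24-month replicate 2, 1 without the salivary-rich libraries, 0 under voom and 10 in the doubtful fit with no filter on low counts, and the number lower was 1 without the salivary-rich libraries. Scgb2a2 fell from 296, 375 and 273 to 39, 26.5 and 16.1 CPM (log2 fold change -3.53, SE 0.34, adjusted p = 0.000118), and Scgb2b2 from 47914, 71413 and 53480.0 to 29011, 24018 and 17756 CPM (log2 fold change -1.29, SE 0.25, adjusted p = 0.00581). Scgb1b3 rose from 4.63, 3.46 and 8.18 to 11, 226 and 41.6 CPM (log2 fold change 4.10, SE 0.84, adjusted p = 0.00727), with replicate 2 far above the others, and its log2 fold change was 2.28 without that library. Against 12 months the family stood higher: 14 of the 21 were higher at 24 months and 1 lower (median 4.18), whereas the median between 12 and 2 months was -2.62. Scgb2b7 shows this order, at 3319, 1551 and 4002 CPM at 2 months, at 219, 58.7 and 150.1 by 12 months and at 4296, 10446 and 3819 by 24 months. It was not called against 2 months (log2 fold change 1.06, SE 0.49, adjusted p = 0.157; 0.46 without 24-month replicate 2) and was called against 12 months (log2 fold change 5.44, SE 0.59, adjusted p = 0.000383). The same uncertainty holds for near-identical secretoglobins, and for Scgb1b2 and Scgb2b2, which overlap on opposite strands.

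**Figure D5:**
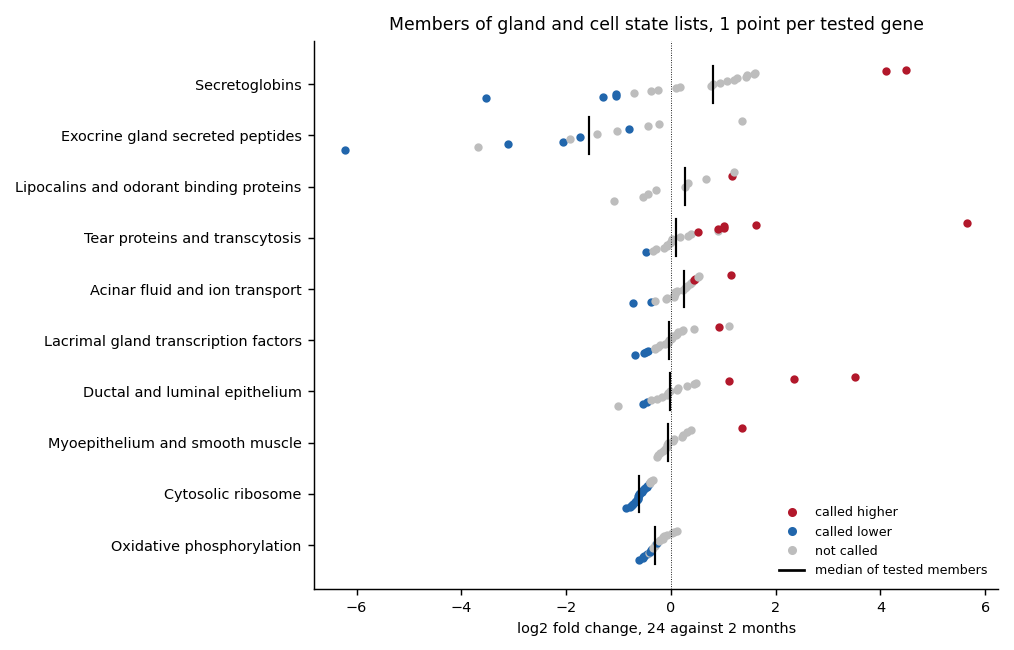
Each point is a tested member of 10 lists of gland and secretory genes, placed by its log2 fold change (24 over 2 months) with bars at the median of the list, and called members are coloured. Exocrine gland secreted peptides lie mostly below 0, secretoglobins spread to both sides, and the medians of the transcription factor and duct lists lie near 0.

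Of 20 tested tear protein and transcytosis genes 6 were higher and 1 lower (median 0.09), and 0 in either direction without the salivary-rich libraries. Called decreases numbered 3 without 24-month replicate 3. Lactoferrin transcript, Ltf, stood at 1391, 1295 and 1275 CPM in young and 979, 1355 and 1688 CPM in old glands, with overlap, and did not pass the test (log2 fold change 0.02, SE 0.18, adjusted p = 0.951). Pigr, the receptor that moves IgA and IgM into secretions, was at 618, 742 and 730.4 and then 1012, 724 and 983 CPM (log2 fold change 0.38, SE 0.16, adjusted p = 0.131), and Obp1a, an odorant binding protein, at 168250.0, 229700.0 and 187230.0 and then 178310.0, 145050.0 and 155830.0 CPM (log2 fold change -0.29, SE 0.23, adjusted p = 0.437). Tcn2, the carrier of vitamin B12, rose from 157, 136 and 156 to 256, 345 and 308 CPM (log2 fold change 1.02, SE 0.18, adjusted p = 0.00401), from 122, 95.5 and 68.5 CPM at 12 months, and Clu, the chaperone clusterin, from 45.5, 45.4 and 43.2 to 66.5, 79.4 and 124 CPM (log2 fold change 1.01, SE 0.18, adjusted p = 0.00412). Old and young libraries of Tcn2 and Clu did not overlap. Slpi, a protease inhibitor of mucosal surfaces, was at 0.0249, 0 and 0.141 and then 0.759, 5.34 and 2.64 CPM (log2 fold change 5.66, SE 1.19, adjusted p = 0.00831), lowest in old replicate 1. Apod, apolipoprotein D, was the 1 higher gene of 9 tested lipocalins and odorant binding proteins, at 22.7, 18.7 and 18.1 and then 40.3, 43.9 and 49.8 CPM (log2 fold change 1.17, SE 0.14, adjusted p = 0.000403). The number higher in that list was 2 without 24-month replicate 1 or 3 and 2 under voom, and the number lower, 0, was 1 without 2-month replicate 1 or 24-month replicate 2.

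Of 22 tested genes of acinar fluid and ion transport 3 were higher and 2 lower (median 0.25). These are 13.6% and 9.09%, near the 9.82% and 7.56% of all tested genes. Called increases numbered 1 without 2-month replicate 2 or 3, or 24-month replicate 2. The number lower was 1 without 2-month replicate 1 or 3, or 24-month replicate 1 or 3. Both were 0 without the salivary-rich libraries. Aqp5, at the levels given for it, did not pass the test (log2 fold change -0.08, SE 0.11, adjusted p = 0.668; 0.23 with library totals alone). Chrm3, the muscarinic receptor through which nerves trigger secretion, rose from 17, 15.9 and 15.5 to 23.1, 21.8 and 21.5 CPM (log2 fold change 0.45, SE 0.10, adjusted p = 0.00839). Of 23 lacrimal transcription factors 1 was higher and 4 lower, with a median of -0.04 that turned to 0.28 with library totals alone, where 0 were lower. Without the salivary-rich libraries 0 were called in either direction, and the number higher was 0 without 2-month replicate 2 or 3, or 24-month replicate 3. Bhlha15, the acinar factor also known as MIST1, was at 546, 521 and 537 and then 404, 384 and 372 CPM (log2 fold change -0.47, SE 0.11, adjusted p = 0.0127), and Sox9 at 127, 180.2 and 154 and then 97.7, 91.2 and 99.5 CPM (log2 fold change -0.68, SE 0.13, adjusted p = 0.00569). Both fell evenly, and with library totals alone their log2 fold changes were -0.17 and -0.36 and neither was called (adjusted p = 0.328 and 0.0636). Beside 9.82% higher and 7.56% lower of all tested genes, 3 (17.6%) of 17 duct and luminal genes were higher and 2 (11.8%) lower. The latter numbered 1 without 2-month replicate 3 or 24-month replicate 2 and 0 without 2-month replicate 2 or 24-month replicate 1. Without the salivary-rich libraries 0 were called in either direction, and under voom 1 was higher. Muc1, a mucin of luminal surfaces, was at 0.0997, 0.352 and 0.453 and then 0.498, 5.64 and 4.09 CPM (log2 fold change 3.51, SE 0.78, adjusted p = 0.011), with old replicate 1 near the young level.

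Of 15 tested genes of myoepithelium and smooth muscle 1 was higher and 0 lower (median -0.05; 0.25 with library totals alone). Acta2, the actin of these contractile cells, was at 74.8, 91.6 and 82.7 CPM at 2 months, at 48.2, 48.1 and 52.7 by 12 months and at 86.6, 74.5 and 75.1 by 24 months. It was not called between 24 and 2 months (log2 fold change -0.08, SE 0.10, adjusted p = 0.67; 0.23 with library totals alone), while old libraries were above those of 12 months (log2 fold change 0.66, SE 0.11, adjusted p = 0.00454). Of the list, 6 genes were higher at 24 than at 12 months and 0 lower. Des, desmin, was the member that rose, from 0.772, 1.26 and 0.934 to 2.02, 2.77 and 2.78 CPM (log2 fold change 1.35, SE 0.27, adjusted p = 0.00654), and 0 members were called without the salivary-rich libraries.

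Hormone genes held changes beside Dio1. Of 23 tested thyroid and steroid hormone genes 8 were higher and 3 lower (median 0.06). The 8 became 5 without 2-month replicate 3, or 24-month replicate 1, 2 or 3 and 4 without 2-month replicate 1 or 2. Without the salivary-rich libraries 5 were higher and 1 lower. Igf1, the insulin-like growth factor, rose from 1.54, 1.29 and 2.09 to 5.13, 6.72 and 6.56 CPM (log2 fold change 1.90, SE 0.25, adjusted p = 0.000665), while its receptor Igf1r fell from 27.3, 33 and 29.4 to 20.4, 22.6 and 22.2 CPM (log2 fold change -0.46, SE 0.09, adjusted p = 0.00675; -0.15 and not called with library totals alone, adjusted p = 0.425). Slco1a6, which can carry thyroid hormones, was among the 3 that fell. Fgg, the gamma chain of fibrinogen, was at 257, 333 and 276 CPM at 2 months, at 28.5, 6.62 and 27 by 12 months and at 96.8, 81.6 and 96.2 by 24 months. Its old libraries lay between the other ages, below 2 months (log2 fold change -1.66, SE 0.37, adjusted p = 0.0116) and above 12 months (log2 fold change 2.14, SE 0.38, adjusted p = 0.00842), and the call against 2 months was lost without 2-month replicate 2 (adjusted p = 0.0513). Of the 10 tested fibrinogen and coagulation genes 4 were higher and 1 lower. The former numbered 2 without 2-month replicate 3 and 1 without 2-month replicate 2 or 24-month replicate 3, and 0 without the salivary-rich libraries. The number lower was 2 without 2-month replicate 1 or 24-month replicate 1 and 0 without 2-month replicate 2. Thbd, the endothelial receptor thrombomodulin, rose from 2.17, 3.49 and 3.79 to 5.92, 6.37 and 6.52 CPM (log2 fold change 0.996, SE 0.21, adjusted p = 0.00825).

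Of 10 tested lipases and lipid enzymes 3 were lower, led by Pnliprp1, and 1, Lpl, was higher. Calls of lower members came to 1 without any 1 library other than 12-month replicate 2 or 3, or 24-month replicate 1, and 1 without the salivary-rich libraries. The number higher was 4 without 24-month replicate 3, 3 without 12-month replicate 1 or 3, or 24-month replicate 2 and 2 without 2-month replicate 1 or 3, 0 without the salivary-rich libraries and 2 under voom. Lpl, lipoprotein lipase, which macrophages and fat cells make, was at 7.8, 6.4 and 9.54 and then 14.9, 22.3 and 20.5 CPM (log2 fold change 1.28, SE 0.27, adjusted p = 0.0083). Of 23 tested genes of xenobiotic metabolism 3 were higher and 3 lower. Calls of higher members came to 1 without 2-month replicate 1, 2 or 3, or 24-month replicate 1 or 2 and 0 without 24-month replicate 3. Lower ones numbered 1 without 2-month replicate 2 or 3, or 24-month replicate 2 or 3, and 1 without the salivary-rich libraries. Cyp2b19, a cytochrome P450, was at 26.8, 29.98 and 25.2 and then 6.83, 16.5 and 8.3 CPM (adjusted p = 0.0129), and was not called without 2-month replicate 2 or 24-month replicate 3 (adjusted p = 0.0545 and 0.0519).

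Ribosomal protein genes were lower as a group. Of 25 tested members of the cytosolic ribosome 21 were lower and 0 higher, and all 25 log2 fold changes were below 0, with a median of -0.60. Their summed level was 8544, 11506 and 9801 CPM at 2 months and 7174, 7021 and 6288 CPM at 24 months, with no overlap. Rps2 fell from 382, 519 and 414 to 268, 243 and 251 CPM (log2 fold change -0.79, SE 0.13, adjusted p = 0.00276), and Rplp2 from 203, 297 and 229.7 to 146, 155 and 141 CPM (log2 fold change -0.72, SE 0.14, adjusted p = 0.00519). In both the young replicate 2 was the highest and the old libraries were even. The sign held with library totals alone (median -0.30, 5 lower). Those that were lower numbered 12 without 2-month replicate 2 or 24-month replicate 3, and 0 without the salivary-rich libraries (median -0.62).

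Of 23 nuclear genes of oxidative phosphorylation 9 were lower and 0 higher, with a median of -0.29 that turned to 0.02 with library totals alone, where 0 were lower. The number lower was 5 without 2-month replicate 2, and 0 without the salivary-rich libraries. Uqcrq, a subunit of complex III, fell from 70.04, 87.3 and 75.2 to 53, 52.3 and 47.8 CPM (log2 fold change -0.60, SE 0.10, adjusted p = 0.00319; adjusted p = 0.0628 with library totals alone), at 52.3, 48.2 and 55 CPM at 12 months. Of 16 tested mitochondrially encoded genes 7 were lower and 0 higher, led by the ribosomal RNAs mt-Rnr2 (log2 fold change -0.99, SE 0.16, adjusted p = 0.00274) and mt-Rnr1 (-0.96, 0.17, 0.00419), which were chosen for naming after their values were seen. Of 24 genes of ER folding and the unfolded protein response 1 was higher and 4 lower (median -0.07; 0.23 with library totals alone), and the number lower was 2 without 2-month replicate 3, or 24-month replicate 1 or 2 and 1 without 2-month replicate 2 or 24-month replicate 3. Those that were higher numbered 0 without any 1 library other than 12-month replicate 1 or 3, or 24-month replicate 1, and 0 were called in either direction without the salivary-rich libraries. Dnajb9, a cochaperone induced by ER stress, fell from 64.3, 79.9 and 106 to 40.1, 39.7 and 44.1 CPM (log2 fold change -1.01, SE 0.21, adjusted p = 0.00758), with no overlap between the ages.

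Cell division genes showed no call: 0 of 24 tested were higher and 0 lower at an adjusted p under 0.05, and 22 of the 24 log2 fold changes were below 0 (median -0.40). At an unadjusted p under 0.05, 0 were higher and 2 lower in edgeR, while DESeq2 called 0 higher and 0 lower, and voom 0 and 1. Mki67, a protein of dividing cells, was at 10.7, 3.76 and 4.61 CPM in young and 4.11, 6.51 and 4.81 CPM in old glands, with 2-month replicate 1 above all others (log2 fold change -0.31, SE 0.35, adjusted p = 0.597; 0.30 without that library). Of 17 tested senescence and cell cycle inhibitor genes 3 were higher (5 without 24-month replicate 1 and 1 without 24-month replicate 2 or 3; 0 without the salivary-rich libraries). Cdkn1a, the inhibitor p21, was at 1.97, 1.15 and 2.04 and then 2.51, 3.9 and 3.99 CPM (adjusted p = 0.0364), and was not called without 2-month replicate 1, 2 or 3, or 24-month replicate 2 or 3 (adjusted p = 0.0527, 0.129, 0.0643, 0.108 and 0.117). Cdkn2a, which encodes p16 and ARF, had too few counts to be tested, with 0, 0 and 1 in young and 4, 28 and 64 in old libraries.

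Clock genes were called both ways, 5 of 18 higher (27.8%) and 3 lower (16.7%), against 9.82% and 7.56% of all tested genes. The number higher was 2 without 24-month replicate 2 or 3 and 1 without 2-month replicate 2 or 3. Called decreases numbered 1 without any 1 library other than 2-month replicate 3, or 12-month replicate 1 or 3 and 0 without 2-month replicate 3. Without the salivary-rich libraries 1 was higher and 0 lower. Nfil3, a repressor in the clock's output that immune cells also use, rose from 11.1, 9.6 and 13.6 to 33.2, 38.5 and 26 CPM, with 11.9, 13.3 and 11.9 CPM at 12 months (log2 fold change 1.51, SE 0.15, adjusted p = 0.000155). Arntl, a core activator, was at 10.1, 7.84 and 6.37 and then 18.5, 15.1 and 11.3 CPM (adjusted p = 0.0113), and was not called without 2-month replicate 2 or 3 (adjusted p = 0.052 and 0.0505). The labels used here give no time of day for the samples. Of 15 immediate early genes, which respond fast to stimulation and handling, 5 were higher (3 without 2-month replicate 2 and 2 without 2-month replicate 3 or 24-month replicate 1; 2 without the salivary-rich libraries). Klf6 rose from 13.9, 13.4 and 17.3 to 20.01, 23 and 21.4 CPM (log2 fold change 0.53, SE 0.11, adjusted p = 0.00871). Of 23 heat shock and oxidative stress genes 4 were higher (2 without 2-month replicate 2) and 0 lower (1 without 24-month replicate 1 or 2). Gpx3, the secreted glutathione peroxidase, rose from 5.98, 3.11 and 5.91 to 19.5, 22.3 and 24.5 CPM (log2 fold change 2.14, SE 0.22, adjusted p = 0.000154), and Sod3, the extracellular superoxide dismutase, from 0.922, 1.23 and 2.12 to 4.29, 3.12 and 5.94 CPM (log2 fold change 1.65, SE 0.33, adjusted p = 0.00663).

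Fat cell genes were higher in old glands. Of 14 tested adipocyte genes 10 were higher and 0 lower, with a median of 3.22 (2.76 where genes without any young count take their lower bound). The number called was 6 without 2-month replicate 2, 3 without the salivary-rich libraries and 4 under voom. Their summed level was 9.87, 8.63 and 9.68 CPM at 2 months, reached 19.97, 50.5 and 47.8 at 12 months and came to 30.2, 48.9 and 23.2 at 24 months. Adipoq, the hormone adiponectin that defines fat cells, had 1, 1 and 1 counts in young and 50, 130 and 15 in old libraries, a 54.1-fold ratio whose 95% interval from counting runs from 18.3 to 265 (adjusted p = 0.0121), and was not called without 2-month replicate 2 (adjusted p = 0.0581). Pparg, the transcription factor of fat cell fate that macrophages also use, was at 0.199, 0.0294 and 0.0849 and then 1.05, 1.72 and 1.43 CPM (log2 fold change 3.67, SE 0.55, adjusted p = 0.00166), and Car3, a carbonic anhydrase of fat and muscle, at 0.723, 0.264 and 0.0849 and then 10.2, 12.8 and 3.68 CPM (log2 fold change 4.57, SE 0.63, adjusted p = 0.000954). The old libraries differ several-fold among themselves in Adipoq and Car3. Fat around the gland and fat inside it cannot be told apart in these libraries.

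Genes of the Harderian gland, a lipid-secreting gland of the orbit, were higher for 4 of 12 tested members (Scd1, Scd3, Mogat1 and Fasn) (7 without 24-month replicate 1). Their summed level was 301, 279 and 274 CPM at 2 months and 356, 527 and 433 CPM at 24 months. Scd1, a stearoyl-CoA desaturase that fat cells also make, rose from 60.1, 42 and 40.2 to 140.3, 212 and 135 CPM (log2 fold change 1.77, SE 0.20, adjusted p = 0.000287), and Mogat1, an enzyme of triglyceride synthesis, from 0.399, 0.382 and 0.396 to 1.41, 7.17 and 2.42 CPM (log2 fold change 3.22, SE 0.57, adjusted p = 0.00381). Both were highest in 24-month replicate 2. Fasn, fatty acid synthase, was called at an adjusted p of 0.046. It was not called without 2-month replicate 1, 2 or 3, 12-month replicate 1 or 2, or 24-month replicate 2 or 3 (adjusted p = 0.0634, 0.086, 0.172, 0.0597, 0.0608, 0.182 and 0.0682), nor in a fit of the 6 libraries alone (adjusted p = 0.0619). Skeletal muscle actin, Acta1, had 0, 1 and 0 counts in young and 5, 3 and 1 in old libraries. This transcript, at 341 and 985 counts in 2 of the 12-month libraries, was thus nearly missing from both ages compared. Of 6 tested skeletal muscle genes 1 was higher and 0 lower. Called increases numbered 0 without 2-month replicate 1, 2 or 3, or 24-month replicate 1 or 3, and 0 without the salivary-rich libraries. The summed level of the list was 2.14, 3.14 and 1.9 CPM at 2 months and 4.01, 3.16 and 3.58 CPM at 24 months. Of the 5 tested salivary genes 0 were called in edgeR, 0 were higher and 1 lower at an unadjusted p under 0.05, and DESeq2 called 0 higher and 0 lower. Lower members numbered 3 without 2-month replicate 1, 2 without 12-month replicate 1, 2 or 3 and 1 without 24-month replicate 1. The part of fat, Harderian and salivary tissue in the other results was not tested.

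Set directly against 12 months, 656 of 14944 genes (4.39%) differed at 24 months, beside 1185 (7.93%) between 12 and 2 months. The second principal component held 20.43% of the variance, with scores of -31.76 to -18.42 at 12 months and 21.02 to 24.03 at 24 months. Lists with the most members called between 24 and 12 months were secretoglobins (14 higher, 1 lower), type I interferon response and fibroblasts (9 higher each), B cells (7 lower) and myoepithelium (6 higher). The count of 656 was 312 without 12-month replicate 1, 360 without 12-month replicate 2, 436 without 24-month replicate 2 and 386 without 24-month replicate 3.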

How the data were processed

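RNA-seq measured 9 lacrimal gland libraries of 2, 12 and 24 months, 3 each, with 40516863 to 42573877 counts a library. The authors deposited gene counts and a table of log2 values. Per the submitters' processing notes, tools were FastQC, cutadapt, STAR, HTSeq and DESeq2 with GRCm38. Versions, annotation release and strand setting were not given in the sources used here, so antisense and near-identical genes cannot be told apart. The deposited log2 values matched log2 of the count over its DESeq2 size factor, plus 1, for 100% of values within 1e-06, and served as a check only. Symbols came from GENCODE M21 for 54165 of 54232 genes.

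Counts were tested with edgeR 4.0.16 (TMM, filterByExpr with a minimum count of 10, quasi-likelihood F test) in 1 model of all 9 libraries, with contrasts of 24 against 2, 24 against 12 and 12 against 2 months and Benjamini-Hochberg adjustment over 14944 genes. A gene was called at an adjusted p under 0.05, with direction set by its log2 fold change. CPM used TMM-scaled library sizes. For genes with 3 or fewer counts in a group the ratio of counts with an exact 95% interval, which covers counting error only, replaces the fitted value. The comparison, its 53 gene lists (996 genes) and its tests were chosen with earlier results of these data known. Named genes were 15 each way by log2 fold change among called genes of at least 2 CPM without overlap of the ages. All immunoglobulin and T cell receptor genes, constant regions included, and predicted genes were left out of these. Up to 4 called genes a list by adjusted p were named too, and 35 chosen genes, not all of which are reported here. The script was tested on simulated data. Alternatives were other scaling (RLE, library totals), no filter or 1 CPM, DESeq2 1.42.0, limma 3.58.1 voom with sample weights, 6 libraries only, the replicate number as a block, each library left out, other thresholds, and leaving out salivary-rich libraries. Promoter windows, from 250 bases before to 50 after each start, came from RefSeq on GRCm38.p6.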

Additional observations from a re-analysis of the deposited data

How the results depend on the processing

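The number of higher genes (1467 at 24 against 2 months) was 2626 with library totals alone, 484 without the 3 salivary-rich libraries, 538 at an adjusted p under 0.01, and 691 to 1623 when single libraries were left out. The number of lower genes (1130) was 191, 142 and 353 in the same order, 158 with a 2-fold minimum, and 469 to 1115 without single libraries. Between 24 and 12 months (656) it was 340 with library totals alone, 1486 with no count filter, 1223 by DESeq2, 170 without the salivary-rich libraries, 211 at 0.01, 281 with a 2-fold minimum and 312 to 700 without single libraries. Between 12 and 2 months (1185) it was 2026 with no count filter, 1821 by DESeq2, 127 without the salivary-rich libraries, 383 at 0.01, 765 with a 2-fold minimum and 435 to 1285 without single libraries. With the replicate block the counts were 1097 higher and 789 lower, 409 and 701, but same-numbered libraries correlated at only -0.18 to 0.05, so the numbers do not pair them. The fit with no count filter gave C3 an adjusted p of 3.56e-142, against 0.000131 with it, so its counts are doubtful. The cause of these moves was not tested, beyond fewer libraries in some.

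Log2 fold changes near 0 turned sign. Col1a1 was -0.155 under voom, -0.2137 to 0.2709 without single libraries (below 0 without 2-month replicate 2, -0.2015, or 24-month replicate 3). Ltf was -0.01355 under voom, -0.002928 with the block, -0.0005718 without the salivary-rich libraries, and -0.1733 to 0.2045 without single libraries (below 0 without 2-month replicate 3, -0.002865, or 24-month replicate 3). With library totals alone Acta2 was 0.2251, Aqp5 0.2309 and Obp1a 0.01797. Without single libraries Mki67 was -0.5738 to 0.298 (above 0 without 2-month replicate 1) and Bpifa2 -6.482 to 1.35 (above 0 without 2-month replicate 3). The difference in immunoglobulin share kept its direction under its alternatives, 0.2016 to 0.6363 percentage points. Of the 195 named genes that were called, 136 kept the call without any single library.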
